A study of Mus musculus with 1111 samples.

Results

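The vacuolar proton pump, or V-ATPase, was examined in single microglia through 10 of its genes: Atp6v1a, Atp6v1b2, Atp6v1h, Atp6v1e1, Atp6v0a1, Atp6v0b, Atp6v0c, Atp6v0d1, Atp6v0e and Atp6ap1. The genes were taken by symbol from count tables of 35583 genes, and each of the 10 symbols stood on 1 gene. The set was chosen by family and selected on measured values of these same cells, in which the levels of Atp6v1a and Atp6v0c in plasma high against plasma none cells went in opposite directions, so that contrast is described here and not tested. The cells were brain microglia of mice aged 3 months, isolated 20 hours after the animals received plasma proteins carrying the fluorescent dye NHS-Atto647N. All cells came from injected animals. They were sorted by the plasma signal inside each cell into plasma none, plasma low and plasma high, and each cell was made into a library of its own by Smart-seq2, a plate method that reads transcripts over their whole length. No label gives a genotype, strain or animal. Each label carries a number from 1 to 3 after the letters TH, whose meaning is not stated, and the 3 TH numbers serve below as 3 sets of wells and not as animals.

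The V-ATPase is a rotary machine that burns ATP to pump protons into endosomes and lysosomes, where the acid lets hydrolases digest proteins taken up by the cell. Its V1 sector sits in the cytosol and splits ATP, while its V0 sector lies in the membrane and carries the protons. In macrophages and microglia it is best known for the acidity of phagosomes and lysosomes, and it also serves as a platform for nutrient sensing at the lysosome surface.

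RefSeq promoter windows (build GRCm38.p6, 250 bases before to 50 after a start site) were matched by symbol for 8 of the 10 genes, with none for Atp6v1b2 and Atp6v1h. The letters CACGTG, the E-box core inside the motif that the lysosomal regulator TFEB binds, were searched, and this word reads alike on both strands. It stood in the windows of 4 genes, Atp6v1a, Atp6v0b, Atp6v0d1 and Atp6v0e, against 7.15% of all 32851 windows of that length. The 7-letter form TCACGTG, searched on both strands and overlapping the shorter word, stood in the same 4 genes and in 3.77% of all windows. The 10-letter form with GT before and AC after CACGTG stood in 0 of the 8 genes and in 0.326% of all windows. Sequence upstream of the RefSeq start site is shown for Atp6v1a, which rose, for Atp6v0c, which was lower, and for Atp6v0b, which had the highest level. Each is the longest stretch that no annotated exon covers, 5′ to 3′ along the gene's strand, with CACGTG in capitals.
Atp6v1a (chr16:44139306-44139461, minus strand): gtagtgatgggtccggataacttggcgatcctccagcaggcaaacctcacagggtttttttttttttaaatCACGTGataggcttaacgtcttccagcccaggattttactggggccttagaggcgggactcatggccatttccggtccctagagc
Atp6v0b (chr4:117887334-117887579, minus strand): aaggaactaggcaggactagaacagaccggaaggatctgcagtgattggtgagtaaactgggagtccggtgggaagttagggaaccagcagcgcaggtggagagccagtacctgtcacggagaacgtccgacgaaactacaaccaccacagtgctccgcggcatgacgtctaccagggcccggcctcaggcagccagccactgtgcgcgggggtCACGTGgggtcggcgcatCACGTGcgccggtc
Atp6v0c (chr17:24169703-24169928, minus strand): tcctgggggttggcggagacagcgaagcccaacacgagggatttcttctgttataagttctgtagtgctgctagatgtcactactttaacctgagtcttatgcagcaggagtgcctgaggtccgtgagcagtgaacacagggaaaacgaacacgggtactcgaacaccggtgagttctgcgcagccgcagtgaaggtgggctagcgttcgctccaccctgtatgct
The Atp6v1a window held the word upstream of the RefSeq start site, and in the Atp6v0b window it began 36 and 18 bases before. The Atp6v1a stretch lies upstream of that start site but inside the gene's own span in GENCODE M21 (chr16:44085402-44139705). None of the 3 Atp6v0c windows held it. A match is a description of letters and does not show that a factor binds there.

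Of 1111 labelled cells, 1045 had values and 987 passed a filter of at least 50000 reads in genes and 500 genes with a read. Of these, 35.1% were plasma none cells, 35.6% plasma low cells and 29.4% plasma high cells (290). Reads were summed over the cells of each group within each TH number, which gave 9 sums of 21309816 to 49323522 reads. Levels are CPM, in which the reads of a gene are set against the scaled total of reads in genes, and means carry the SD over the 3 TH numbers (n = 3). The median depth per cell was 175699 to 277222 reads in plasma none and 228822 to 404743 in plasma high. At an equal 50000 reads per cell, plasma none cells still had fewer genes with a read (medians of 1450 to 1603 over TH numbers) than plasma low (1615 to 2003) or plasma high cells (1658.5 to 1873). The 8 microglia markers summed to 51897 ± 1440 CPM among plasma none cells, 50823 ± 4477 among plasma low cells and 51858 ± 4121 among plasma high cells, and lymphocyte and neutrophil markers had no read. Within that list, at 3 of 3 TH numbers, Csf1r was higher in plasma high against plasma none (18.8% of all genes tested were) and P2ry12, Tmem119 and Cx3cr1 were lower (13.8%). Oligodendrocyte markers summed to 21.2 to 68.9 CPM for plasma none, 28.6 to 60.9 for plasma low and 56.4 to 83.4 for plasma high cells, with Mog and Cldn11 at 0. The groups stood in separate columns of the plates (1 to 8, 9 to 16 and 17 to 23), so group and plate position cannot be told apart. Because no animal is named, each group is 1 sample of cells, and the groups are compared by size without a test.

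Atp6v1a encodes the A subunit of V1, the one that binds and splits ATP, and against plasma none cells it rose in both other groups. Among plasma none cells it stood at 22.2, 33.2 and 29.6 CPM at TH 1, TH 2 and TH 3. Plasma low cells gave 113.1, 63.1 and 55.3 CPM, and plasma high cells 145.8, 121.2 and 96.3 CPM. All 3 plasma none values lay below all 6 others, while plasma low and plasma high overlapped through the plasma low value of TH 1. The means were 28.3 ± 5.60, 77.2 ± 31.4 and 121.1 ± 24.7 CPM. As the log2 ratio of CPM + 1 within each TH number, plasma high stood above plasma none by 2.66, 1.84 and 1.67, with a mean of 2.06 ± 0.53, a 4.16-fold rise. The corresponding ratios of plasma low over plasma none were 2.30, 0.91 and 0.88, with a mean of 1.36 ± 0.81, a 2.57-fold rise. TH 1 carried much of that second value, which was 0.89 without it. Over all reads of a group, the counting error was small beside these differences: 29.3 CPM for plasma none (95% Poisson interval 28.2 to 30.5), 73.4 for plasma low (71.8 to 75.2) and 120.8 for plasma high cells (118.7 to 122.98). Poisson intervals cover counting error only, and reads made by PCR without molecular identifiers are not independent molecules.

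A gene met the size rule when its mean log2 ratio was at least 1 in size with the same sign at 3 of 3 TH numbers, its mean level was at least 20 CPM and at least 10% of the cells of 1 group had a read of it. Of the 10 genes only Atp6v1a met it in plasma high against plasma none, where 3.09% of 5534 genes tested met it upwards and 2.06% downwards. Since that contrast led to the choice of genes, the count is given as a description. Oligodendrocyte marker sums had a higher range in plasma high cells too, with overlap, and with 13 cells that carried 2 markers of another cell type left out (chosen after seeing the data) the Atp6v1a ratio was 2.00. The marked cells were 5 plasma none, 3 plasma low and 5 plasma high cells. Part of its reads may be hard to place, since a processed pseudogene, Gm18990, matches 7.0% of its transcript of 4234 bases at 90.2% identity. The gene (ENSMUSG00000052459, chr16:44085402-44139705, minus strand, mm10) overlaps no other annotated gene.

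**Figure D1:**
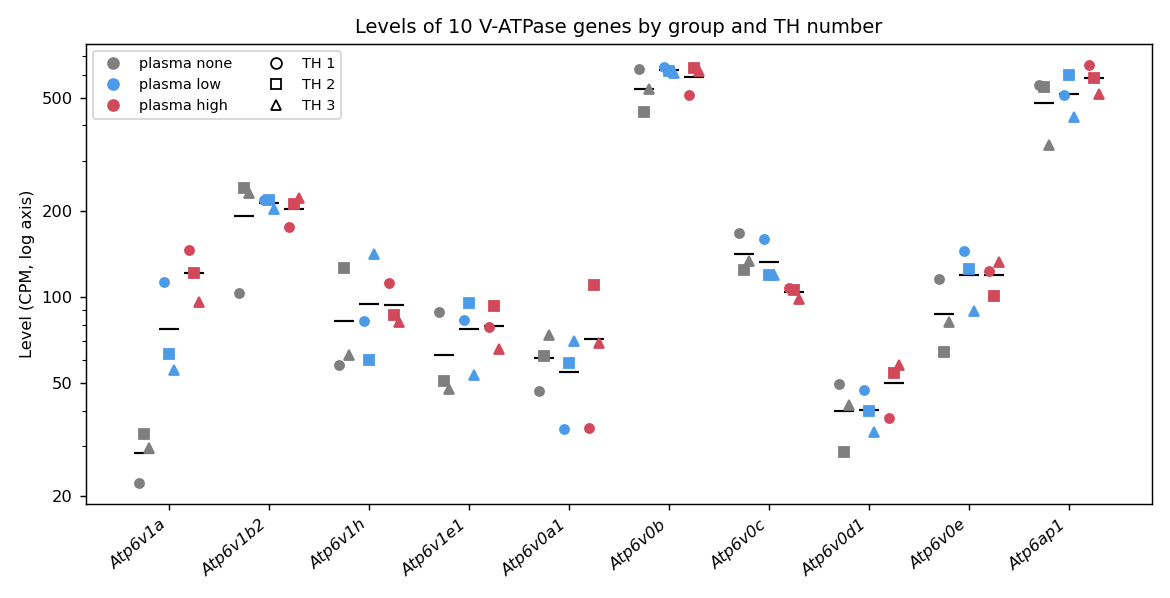
Level of each of the 10 V-ATPase genes in CPM on a log axis, with 1 point per TH number, colours for the 3 plasma groups and a line at each mean. Atp6v1a is the gene whose plasma none points (22.2 to 33.2 CPM) sit below all of its other points, and the Atp6v0c plasma high points (98.8 to 107.8 CPM) sit below those of its other groups.

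Atp6v0c encodes the c subunit, the proteolipid that forms most of the rotating ring through which V0 carries protons, and it was lower in plasma high. It stood at 167.6, 124.3 and 133.8 CPM in plasma none cells, 160.1, 119.5 and 119.5 in plasma low cells, and 107.8, 105.6 and 98.8 in plasma high cells. Every plasma high value lay below all 6 others, and plasma none overlapped plasma low. The means were 141.9 ± 22.7, 133.04 ± 23.5 and 104.1 ± 4.66 CPM. Plasma high against plasma none gave log2 ratios of -0.63, -0.23 and -0.43, with a mean of -0.43 ± 0.20, which is a level 1.35-fold lower and short of the size rule. The microglia marker Tmem119, no member of the pump, had a ratio of about that size (-0.44 ± 0.15; 5047, 4797 and 4686 CPM for plasma none and 3321, 3667 and 3740 CPM for plasma high cells), with no overlap either. Against plasma low the ratios were -0.57, -0.18 and -0.27, with a mean of -0.34 ± 0.20. The plasma low to plasma none ratios were -0.07, -0.06 and -0.16, with a mean of -0.09 ± 0.06. With each cell thinned to 50000 reads the last value was 0.0021, so it had no stable sign.

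The Atp6v0c values are uncertain in 1 respect. The processed pseudogenes Atp6v0c-ps2 and Atp6v0c-ps1 match 465 of the 1183 bases of its transcript at 99.8% and 97.2% identity, and neither has an entry in the count tables. Per the file headers, columns of TH 2 and TH 3 were made from top hits and those of TH 1 carry no such note. The ratio was below 0 at all 3 TH numbers. The gene (ENSMUSG00000024121, chr17:24163866-24169702, minus strand, mm10) overlaps no other annotated gene.

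The other V1 genes gave ratios of both signs over the TH numbers. Atp6v1b2 encodes the B2 subunit, which binds nucleotide beside the A subunit without splitting it. It stood at 103.6, 241.8 and 231.8 CPM in plasma none cells, 219.1, 218.8 and 203.5 in plasma low cells, and 175.5, 211.9 and 222.4 in plasma high cells. A single low plasma none value, that of TH 1, set the spread, and the log2 ratio, plasma high over plasma none, was 0.17 ± 0.51. Atp6v1h encodes the H subunit, which sits between the sectors and restrains ATP splitting when V1 is detached. It stood at 57.7, 126.5 and 62.6 CPM in plasma none cells, 82.1, 59.9 and 141.2 in plasma low cells, and 112.4, 86.2 and 81.8 in plasma high cells. The groups overlapped throughout, with a ratio of 0.26 ± 0.76. Atp6v1e1 encodes the E1 subunit of the peripheral stalks that hold the motor still. It stood at 88.9, 50.9 and 47.7 CPM in plasma none cells, 83.05, 95.5 and 53.3 in plasma low cells, and 78.4, 93.4 and 65.8 in plasma high cells. TH 1 went against TH 2 and TH 3, and the ratio was 0.38 ± 0.52. Atp6v1b2, Atp6v1h and Atp6v1e1 each overlap a gene on the opposite strand (Slc18a1, Rgs20 and Slc25a18), and whether strand was used in counting is not given in the sources used here.

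Among the V0 genes, Atp6v0b encodes the c″ proteolipid of the ring. It stood at 633, 446 and 536 CPM in plasma none cells, 642, 623 and 611 in plasma low cells, and 512, 634 and 622 in plasma high cells. Plasma none spanned the widest range, and the ratio, plasma high over plasma none, was 0.14 ± 0.41. Its reads cannot be told from those of the overlapping antisense gene Gm12841 without strand. Atp6v0a1 encodes the a1 subunit, which offers the proton path beside the ring. It stood at 46.8, 62.3 and 73.6 CPM in plasma none cells, 34.6, 58.95 and 69.9 in plasma low cells, and 34.7, 110.01 and 68.98 in plasma high cells. The 110.01 CPM of plasma high at TH 2 stood apart from the other 8 values, and the ratio was 0.10 ± 0.64. In that same sum the 6 neuron markers reached 55.4 CPM, against 0 to 4.88 in the other 8 sums. Nearly all of it was 1 gene, Snap25 (55.3 CPM), with Syt1, Rbfox3, Slc17a7 and Gad1 at 0 there, and its part in the Atp6v0a1 value was not tested.

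Atp6v0d1 encodes the d1 subunit, which couples the ring to the central stalk. It stood at 49.5, 28.6 and 41.8 CPM in plasma none cells, 47.2, 39.8 and 33.6 in plasma low cells, and 37.7, 53.99 and 57.8 in plasma high cells. TH 1 went down where TH 2 and TH 3 went up, with a ratio of 0.32 ± 0.65. Atp6v0e encodes the small membrane subunit e1. It stood at 115.6, 64.1 and 81.98 CPM in plasma none cells, 145.2, 125.2 and 89.1 in plasma low cells, and 123.9, 101.2 and 133.01 in plasma high cells. Plasma high cells were above plasma none cells at 3 of 3 TH numbers (0.10, 0.65 and 0.69, mean 0.48 ± 0.33), and so were plasma low cells at 3 of 3 (0.33, 0.96 and 0.12, mean 0.47 ± 0.44). The groups overlapped through the plasma none value of TH 1. Atp6ap1 encodes Ac45, an accessory protein needed for assembly of the pump. It stood at 557, 546 and 341.9 CPM in plasma none cells, 512, 603 and 427 in plasma low cells, and 652, 586 and 516 in plasma high cells. Its plasma high values were above those of plasma none at 3 of 3 TH numbers (0.23, 0.10 and 0.59, mean 0.31 ± 0.25), with overlap.

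**Figure D2:**
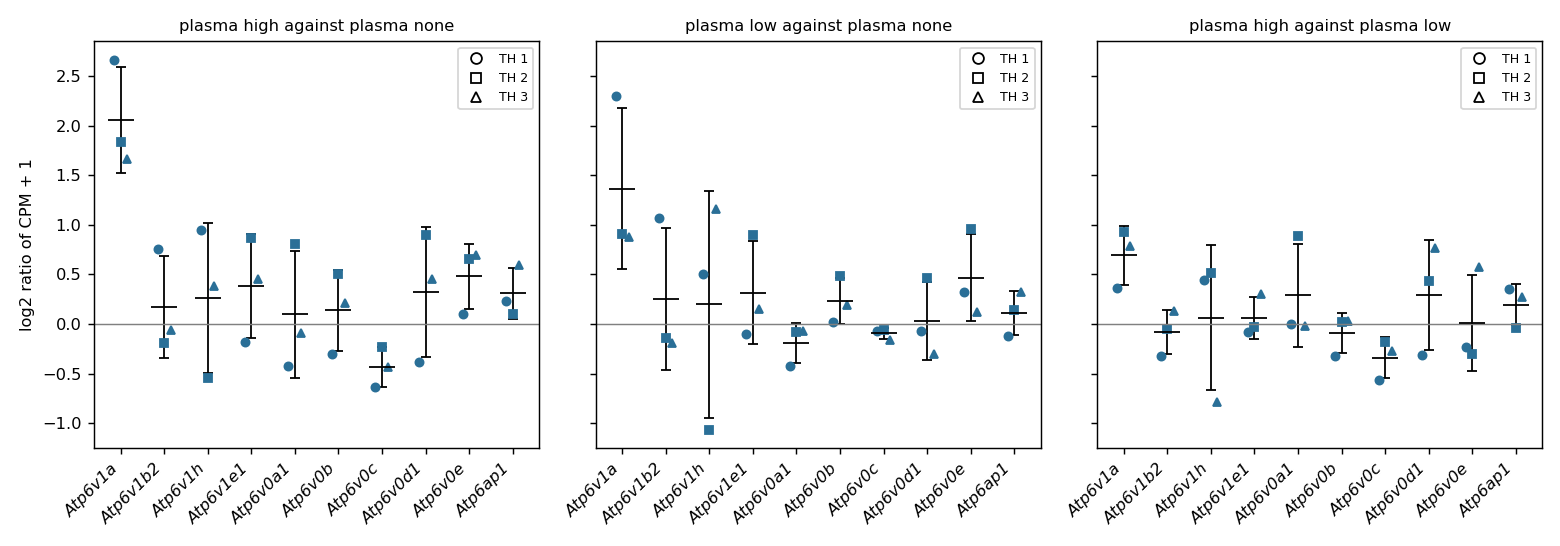
Log2 ratio of CPM + 1 for the 10 genes in the 3 comparisons, with 1 point per TH number and a bar for the mean ± SD. In plasma high against plasma none, Atp6v1a stands at 2.06, Atp6v0c is the only gene with all 3 points below 0, and 6 of the genes have points on both sides of 0.

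Read as a set, 9 of the 10 genes had a mean ratio above 0 in plasma high against plasma none, where 54.8% of all genes tested did. The sign was the same at 3 of 3 TH numbers upwards for 3 genes (Atp6v1a, Atp6v0e and Atp6ap1; 18.8% of all genes tested) and downwards for 1 (Atp6v0c; 13.8%). The groups did not overlap for Atp6v1a upwards (8.51% of all genes tested) and for Atp6v0c downwards (5.42%). The median ratio of the set was 0.28, with -0.04, 0.58 and 0.42 at the 3 TH numbers, beside 0.05 for all genes tested. In this median TH 1 therefore stood below TH 2 and TH 3, as it did for Atp6v0b, Atp6v0d1 and Atp6v1e1 singly. By sector, TH 1 was lowest for the V0 and accessory genes (medians of -0.34, 0.58 and 0.34). For the V1 genes it was highest (0.85, 0.34 and 0.42).

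Plasma low against plasma none, which shares the plasma none cells with the comparison above, gave a median ratio of 0.21 for the set and 0.05 for all genes tested. Atp6v1a met the size rule upwards (1.6% of 5489 genes tested did) and was the member whose groups did not overlap (5.34% of all genes upwards). With TH 1 left out its ratio was 0.89 and it no longer met the rule. The sign was the same at 3 of 3 TH numbers upwards for Atp6v1a, Atp6v0b and Atp6v0e (16.7% of all genes) and downwards for Atp6v0a1 and Atp6v0c (11.8%). The Atp6v0a1 ratio was -0.19 ± 0.20 and the Atp6v0b ratio 0.23 ± 0.23, so neither mean exceeded its spread.

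Plasma high against plasma low shares cells with both. The median ratio of the set was 0.06, beside 0.01 for all genes tested. No member met the size rule, which 1.75% of 5709 genes met upwards and 1.52% downwards. Atp6v1a was higher at 3 of 3 TH numbers (0.36, 0.93 and 0.79, mean 0.69 ± 0.30), as were 14.1% of all genes. With each cell thinned to 50000 reads its ratio was 0.34. Atp6v0c was lower at 3 of 3 (13.1% of all genes) with no overlap (4.47%). The other 8 genes had mixed signs.

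Levels of different genes were compared per kilobase of annotated exon. Atp6v0b had rank 1 of the 10 in every group (262.5 ± 45.5 CPM per kb in plasma none and 287.4 ± 32.8 in plasma high cells) and Atp6ap1 rank 2 (159.1 ± 39.98 and 193.3 ± 22.5). In plasma none cells Atp6v1a was last at 4.69 ± 0.926 CPM per kb, below Atp6v1h (8.44 ± 3.94) and Atp6v0a1 (9.29 ± 2.05), and those 2 neighbours did not differ beyond their spread. In plasma high cells Atp6v1a had rank 7 at 20.03 ± 4.09, next to Atp6v1e1 at 19.3 ± 3.36, from which it did not differ beyond the spread. Atp6v0c went from rank 3 in plasma none cells (41.9 ± 6.72 CPM per kb) to rank 5 in plasma high cells (30.8 ± 1.38). It lay beside Atp6v1b2 in plasma none (36.3 ± 14.5) and beside Atp6v0e in plasma high cells (32.2 ± 4.42), in both cases within the spread.

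Summed by sector, the 4 V1 genes gave 272.4, 452 and 371.8 CPM in plasma none cells, 497, 437 and 453 in plasma low cells, and 512, 513 and 466 in plasma high cells. The plasma high values lay above all plasma none values, the nearest being 452 and 466 CPM. That separation rested on Atp6v1a, which the choice of genes used: without it (chosen after seeing the data) the other 3 genes gave 250.2, 419 and 342.1 CPM in plasma none and 366.3, 391.6 and 370.1 in plasma high cells, which overlapped. The 5 V0 genes gave 868 ± 143.4 CPM in plasma none cells, 973 ± 53.5 in plasma low cells and 934 ± 102.7 in plasma high cells, with overlap. All 10 genes together gave 1715 ± 130.6, 1949.9 ± 127.9 and 2016 ± 76.8 CPM, and the plasma high range (1963 to 2104) lay above the plasma none range (1581 to 1842). Without Atp6v1a the ranges were 1835 to 1983 and 1551 to 1819 CPM, apart by little, with 1834.9 and 1819.3 CPM at TH 1. Most of these sums came from Atp6v0b and Atp6ap1, whose groups overlapped singly. The sums were not recomputed under other scalings or filters, and no like sums of other genes were made.

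In single cells, Atp6v1a was read in few cells. At 50000 reads per cell, the share with a read was 7.80% of plasma none cells (27 cells, exact 95% binomial interval 5.21 to 11.2%), 17.4% of plasma low cells (61 cells, 13.6 to 21.8%) and 19.7% of plasma high cells (57 cells, 15.2 to 24.7%). By TH number it was 8.62, 7.08 and 7.69% of plasma none cells and 22.8, 19.8 and 16.1% of plasma high cells, with no overlap. A larger share in plasma high at every TH number, with or without overlap, was seen for 34.9% of all genes tested. Atp6v1a was also a gene that the choice of the set used. Without thinning the shares were 9.83, 20.2 and 20.7%. These intervals cover counting error only and treat cells as independent. Among cells with a read, the median level was 183.9 CPM for plasma none, 413 for plasma low and 449.6 for plasma high cells. By TH number these medians were 231.1, 151.2 and 267.7 CPM for plasma none, 480.3, 497 and 115.8 for plasma low, and 323.4, 801 and 438 for plasma high cells. Both the share and the level in cells with a read were thus higher in plasma high at every TH number, while plasma low was lower than plasma none in level at TH 3. The single cell with most reads held 15.7% of the Atp6v1a reads of plasma none and 13.3% of those of plasma high.

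**Figure D3:**
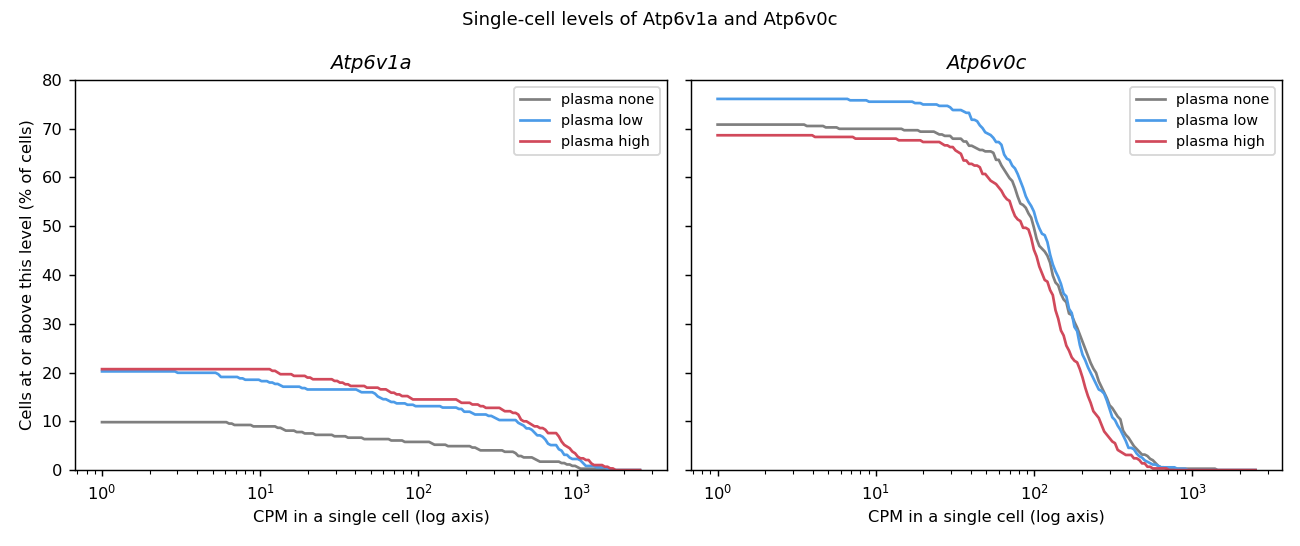
Share of cells at or above a given level of Atp6v1a and Atp6v0c, with the level in a single cell in CPM on a log axis and 1 line per plasma group, all reads used. For Atp6v1a the plasma none line starts at 9.83% of cells and the others at 20.2 and 20.7%, while for Atp6v0c the lines start at 68.6 to 76.1% and the plasma high line is the lowest.

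Atp6v0c was read in most cells, with shares at 50000 reads of 70.2% for plasma none, 74.9% for plasma low and 66.2% for plasma high cells. Their exact intervals were 65.1 to 75.002%, 70.1 to 79.4% and 60.4 to 71.6%. The median level in cells with a read was 152.3 CPM for plasma none, 147.9 for plasma low and 133.8 for plasma high cells. By TH number it was 178.4, 161.02 and 141.98 CPM for plasma none against 133.8, 122.6 and 139.8 for plasma high cells, lower at 3 of 3.

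Other genes of the set also had a read in more plasma high than plasma none cells. At 50000 reads per cell, Atp6v0e was read in 26.01% of plasma none cells, 39.03% of plasma low cells and 37.2% of plasma high cells. Its median level in cells with a read was 299.9, 249.6 and 260.4 CPM over all reads, so it was found in more cells but not at a higher level in them. Atp6v0d1 was read in 24.6, 30.2 and 34.8% of cells in the order of plasma none, low and high. Of the 10 genes, 4 (Atp6v1a, Atp6v0b, Atp6v0d1 and Atp6v0e) had a larger share in plasma high than in plasma none at 3 of 3 TH numbers, and so had 34.9% of all genes tested. None had a smaller share at 3 of 3, as 5.02% of all genes had. The median difference in share was 5.22 percentage points for the set and 2.61 for all genes tested, so a wider detection of genes in plasma high cells was shared by genes outside the set.

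A cell at 50000 reads had a read of 3.45 of the 10 genes on average in the plasma none group, 4.09 in the plasma low group and 4.01 in the plasma high group. By TH number the means were 3.72, 3.27 and 3.37 for plasma none, 4.48, 3.76 and 4.03 for plasma low, and 4.32, 3.88 and 3.83 for plasma high cells. Plasma high lay above plasma none at 3 of 3 TH numbers and its lowest mean, 3.83, was above the highest of plasma none. Without Atp6v1a the means were 3.63, 3.19 and 3.29 for plasma none and 4.09, 3.68 and 3.67 for plasma high cells. Genes with a read per cell moved the same way at equal depth, as given above, and their part in this count was not tested. The share of cells with at least 5 of the genes was 21.7% for plasma none, 40.5% for plasma low and 38.97% for plasma high cells, and no cell had a read of all 10.

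Atp6v1a and Atp6v0c were not read in separate cells. At 50000 reads, Atp6v0c had a read in 77.8% of the plasma none cells with Atp6v1a and in 69.6% of those without. The same shares were 81.97 and 73.4% for plasma low, and 77.2 and 63.5% for plasma high cells. In each group the share was higher in cells with Atp6v1a, though these numbered 27, 61 and 57. Whether cells with a read of Atp6v1a had more genes with a read in general was not tested, and no other pair was compared.

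**Figure D4:**
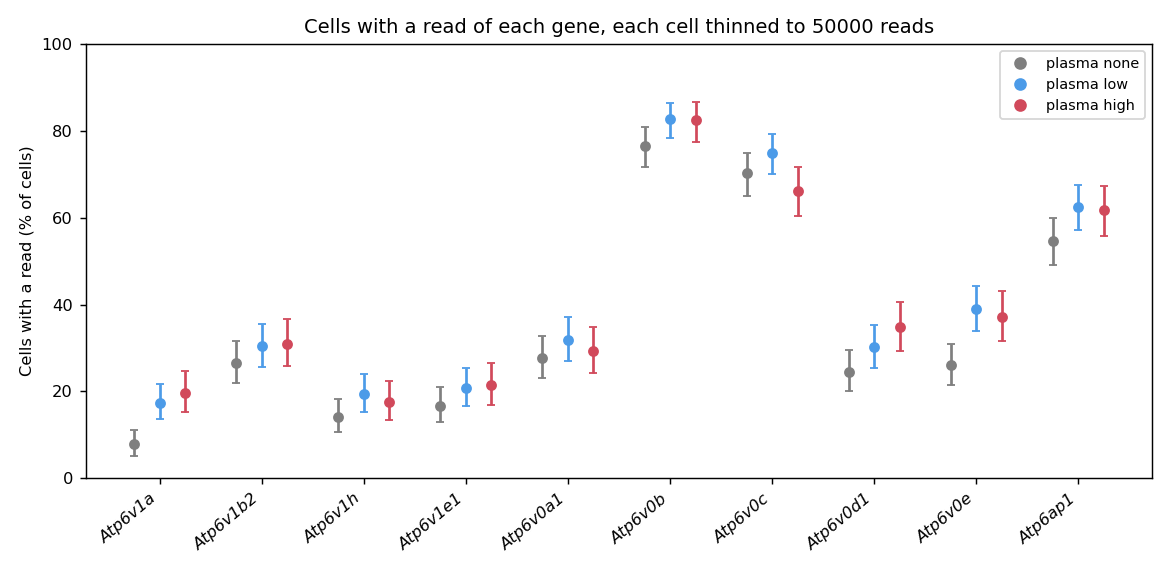
Share of cells with a read of each of the 10 genes after thinning to 50000 reads per cell, with 1 point per plasma group and bars for the exact 95% binomial interval, which covers counting error only. The plasma none points of Atp6v1a (7.80%) and Atp6v0e (26.01%) have intervals below those of plasma high (19.7 and 37.2%), and Atp6v0b and Atp6v0c are the genes read in the largest share of cells.

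The rest of the pump was read from fixed lists, of which 8 of the 17 genes were tested. Of 9 other V1 genes, 4 were tested in plasma high against plasma none, with 1 higher (18.8% of all genes tested) and 1 lower (13.8%) at 3 of 3 TH numbers. Atp6v1f, the F subunit of the central stalk, was higher by 0.42, 0.90 and 0.03 (mean 0.45 ± 0.44; 84.9 ± 27.1 CPM in plasma none and 116.1 ± 34.99 in plasma high cells). Atp6v1c1, the C1 subunit that clamps the stalks to the membrane sector, was lower by a mean of -0.06 ± 0.02 (289.9 ± 2.34 and 278.4 ± 5.37 CPM). Of 8 other V0 and accessory genes, 4 were tested, with 1 higher (18.8% of all genes tested) and 2 lower (13.8%) at 3 of 3. Rnasek, a small membrane protein found with the pump, was higher by 0.48, 0.47 and 0.38 (mean 0.45 ± 0.05). Tcirg1, the a3 isoform found in lysosomes and osteoclasts, was lower at -0.25 ± 0.07 (241.4 ± 22.6 and 202.9 ± 8.37 CPM).

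Atp6ap2, the prorenin receptor and a second accessory protein of the pump, was lower by -0.25, -0.57 and -0.84 (mean -0.56 ± 0.29). It stood at 527 ± 27.8 CPM in plasma none cells, 425 ± 79.03 in plasma low cells and 363.3 ± 73.1 in plasma high cells, and plasma none and plasma high did not overlap. Tcirg1 and Atp6v1c1 were also lower with no overlap, as were 5.42% of all genes tested. The accessory genes Atp6ap1 and Atp6ap2 thus had mean ratios of opposite sign, 0.31 and -0.56, neither of which met the size rule. None of the 8 genes met it, against 5.15% of all genes tested in either direction. Their median ratios were -0.03 for V1 and -0.34 for V0 and accessory genes.

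Genes that assemble or regulate the pump (10 listed, 6 tested) included 0 with the same sign at 3 of 3 TH numbers, with a median ratio of -0.15, where 18.8% of all genes tested were higher and 13.8% lower. Other ion transporters of endosomes and lysosomes (12 listed, 7 tested) had 1 lower (13.8% of all genes tested) and 0 higher. The 1 was Mcoln1, the calcium channel of the lysosome membrane. It stood at 50.8 ± 7.92 CPM in plasma none cells, 52.8 ± 10.3 in plasma low cells and 30.1 ± 15.6 in plasma high cells, a ratio of -0.87 ± 0.69 with overlap. The median of that list was -0.04, and no gene of either list met the size rule.

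**Figure D5:**
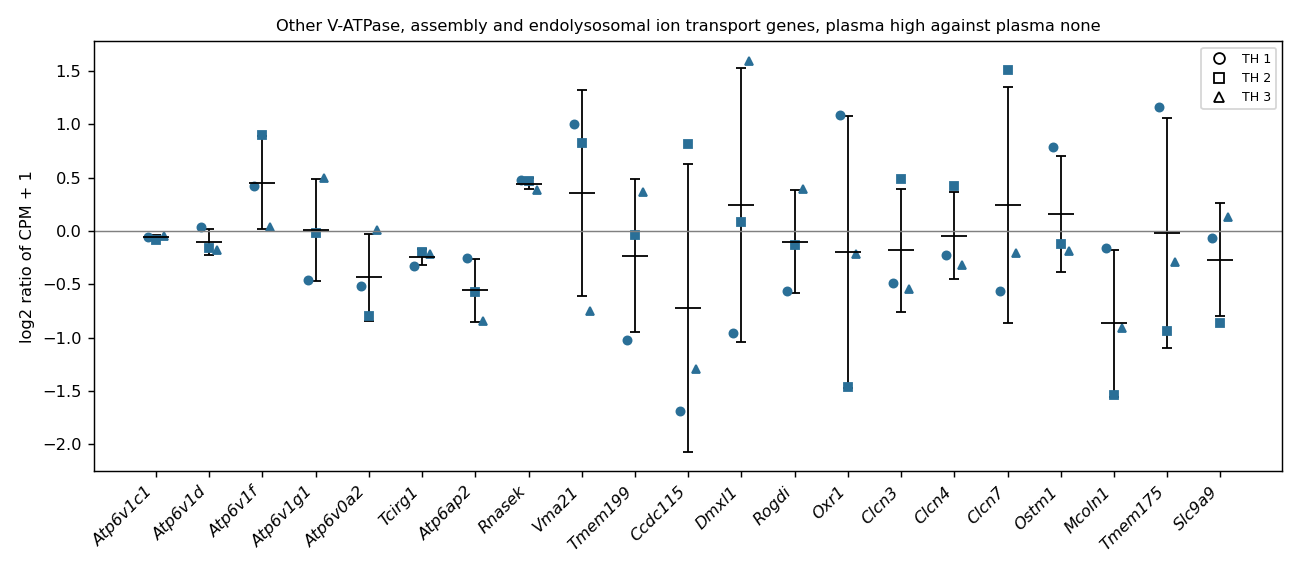
Log2 ratio of CPM + 1 in plasma high against plasma none for the 21 tested genes of the pump outside the 10, its assembly factors and other endolysosomal ion transporters, with 1 point per TH number and bars for the mean ± SD. Rnasek (0.45 ± 0.05) and Atp6ap2 (-0.56 ± 0.29) have all 3 points on 1 side of 0, and most assembly and ion transport genes have points on both sides.

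To find genes with a like pattern, 6506 genes with a mean of at least 20 CPM were ranked by Pearson's r of log2 CPM + 1 over the 9 sums, centred within each TH number. The 9 sums share libraries' plates and scaling, and r is a description of likeness. For Atp6v1a the nearest were Api5 (r = 0.99; 33.1 ± 19.04 CPM in plasma none cells, 62.3 ± 7.36 in plasma low cells and 104.1 ± 22.4 in plasma high cells), Polr1c (r = 0.99) and Glipr1 (r = 0.98). For Atp6v0c they were Rin3 (r = 0.98; 43.8 ± 12.02, 33.9 ± 10.3 and 16.2 ± 7.97 CPM in the same order), Wrn (r = 0.98) and Tcf20 (r = 0.97). No member was among these. Of the other members, Atp6v0e was nearest to Atp6v1a (r = 0.61), and Atp6v0c was farthest (r = -0.77). The genes were chosen on the opposite directions of Atp6v1a and Atp6v0c, so a negative r between them was built in. The member farthest from Atp6v0c was Atp6ap1 (r = -0.82).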

How the data were processed

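Single mouse microglia were profiled by Smart-seq2, with 1 library per cell. The authors deposited counts of reads per gene for each cell, in 1 table per TH number, and per the submitters' processing notes the tools named were bcl2fastq, Trim Galore, STAR 2.5.3a and Seurat, with build mm10. Neither the counter nor its handling of strand is given in the sources used here. Per the file headers, TH 2 and TH 3 columns came from alignments reduced to top hits. In 1 deposited column, from TH 3, 2 values were not whole, so the column was treated as estimated counts (expected counts) and rounded. Of 1111 labelled cells, 66 had no matched column of values, and 987 of the 1045 with values passed the filter given below.

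Reads of cells with at least 50000 reads and 500 genes were summed by group and TH number and scaled with TMM (edgeR 4.0.16, R 4.3.3). Ratios used CPM plus 1, within each TH number. Scripts ran in Python 3.11.15 and were tested on simulated data. Cells were thinned to 50000 reads for shares. No doublet caller was run on singly sorted cells, and no clustering was done. Exon lengths came from GENCODE M21, which held 35546 of the table's IDs, and near-identical copies from blastn 2.17.0 (at least 90% identity over 100 bases). No test was made, as no label names an animal. The 10 genes were all named, and so were genes of the other lists with the same sign at 3 of 3 TH numbers in plasma high against plasma none and the 3 genes most like Atp6v1a or Atp6v0c, predicted genes left out. The genes and lists were chosen with earlier results of these data known. Alternatives were other scalings (DESeq2 1.42.0 size factors among them), pseudocounts, filters, cell weights and sets of wells.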

Additional observations from a re-analysis of the deposited data

How the results depend on the processing

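All 10 mean ratios and the shares of cells were recomputed under each alternative. Of 420 alternative values of single ratios, 412 stayed within 1 SD, 8 moved by more and 0 called values changed sign, while 27 values of ratios that were not called did, among them Atp6v1b2 in 3 of 14 (plasma high against plasma none) and Atp6v1h in 5 and Atp6v1e1 in 4 of 14 (plasma high against plasma low). Leaving out 1 of 3 TH numbers cannot move a mean by 1 SD, so those ratios stayed within it by arithmetic. The called ratios were those of Atp6v1a alone, in plasma high and in plasma low against plasma none. All 50 alternative shares stayed within the spread over TH numbers, and 3 share differences changed sign with 1 TH number left out: Atp6v1h (-1.27), Atp6v0a1 (-0.489) and Atp6v0c (1.34). For shares with 1 TH number left out, staying within that spread was likewise nearly fixed in advance. The Atp6v1a ratio (plasma high over plasma none) was 1.70 to 2.57 and met the size rule in 14 of 14 alternatives. Against plasma none the plasma low ratio was 0.89 to 1.71 and met it in 13 of 14, the exception being without TH 1 (0.89). The Atp6v0c ratio (plasma high over plasma none) was -0.53 to -0.28 in the 14. Over all genes tested, those meeting the size rule made up 5.15% (plasma high against plasma none), and 3.48% with thinned cells, 8.35% with no filter on low values and 8.23 to 10.9% with 1 TH number left out. In plasma low against plasma none 2.64% met it, and 6.56% with no filter and 5.52 to 6.79% with 1 TH number left out. In plasma high against plasma low 3.28% met it, and 2.06% with thinned cells, 6.81% with no filter and 6.85 to 7.70% with 1 TH number left out. In each of these the number of genes was more than 1.5 times the main number, or less than the main number divided by 1.5. With fewer TH numbers the same sign is easier to reach, and with no filter more genes are tested. Other differences were not traced, and the cause was not tested. The median difference in share of cells with a read, plasma high minus plasma none, was 5.48 percentage points with all reads (5.22 with thinned cells), and 6.63 to 7.47 with 1 TH number left out. No scaling moved the median of all genes by more than 0.1, the largest shift being -0.04. No paired analysis was possible because each sample is 1 cell and replicate numbers only name cells, which is meant for pairing by replicate number. The ratios themselves were taken within each TH number, which the 3 groups share.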

Other observations

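Several isoform genes of the pump had no or almost no reads in these microglia. Atp6v1b1, the B isoform known from kidney, Atp6v1e2, Atp6v1g3, Atp6v0d2 and Atp6ap1l had no read in any of the 987 cells. A count of 0 among the cells of a group allows a share of cells with a read, not of cells that express the gene, of up to 1.06% for plasma none, 1.05% for plasma low and 1.26% for plasma high cells (exact 95% binomial upper bound, counting error only). Atp6v1c2, the C2 isoform, had a read in 1.45% of plasma none cells, 1.14% of plasma low cells and 3.10% of plasma high cells, at a median of 10.6, 6.51 and 6.16 CPM in those cells. The paired isoform Atp6v1c1 had a read in 33.2, 39.6 and 36.6% of cells.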
